A study of Homo sapiens with 6 samples.

Results

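The genes described here are 43 enzymes and complex members that place or remove methyl groups on histone lysines. They were chosen by name from a list of histone lysine demethylases, Polycomb repressive complex 2 (PRC2) and other lysine methyltransferases. The choice was made with earlier results of these data known. All 43 had a row among the 27009 genes of the deposited table, and all 43 reached 10 or more scaled reads (defined below) in 3 or more libraries, the filter that left 15076 genes for testing. There were 21 demethylases and related JmjC proteins and 22 methyltransferases or PRC2 members.

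RNA sequencing compared cells labelled Hep3B, a human hepatocellular carcinoma line, that all lacked endogenous PD-L1 through a knockout and then carried either the empty vector (3 libraries) or nPD-L1 (3 libraries). nPD-L1 is PD-L1 with the residues LCL changed to ACA, a form made to be held in the nucleus, and it was expressed from the CMV promoter of a lentiviral pCDH-CMV-Puro construct in stable cells. The labels state neither whether the lines were clones nor whether replicates were separate cultures, so p-values measure only the spread between these libraries. Values were taken to be the read count of a gene over the size factor of its library, called scaled reads here. In RNA from many cells, fewer cells of a type and less RNA per cell cannot be told apart.

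Methylation of histone lysines marks chromatin by residue. Methyl groups on lysine 4 of histone H3 (H3K4) and on H3K36 and H3K79 accompany active genes, whereas those on H3K9 and H3K27 accompany silenced genes. Methyltransferases place the marks, mostly through a SET domain, and demethylases remove them, either by the flavin chemistry of KDM1 enzymes or by the iron- and oxoglutarate-dependent JmjC domain of the others.

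CD274, the gene of PD-L1, stood at 28.3, 38.4 and 47.8 scaled reads across vector replicates 1, 2 and 3, against 16.8, 19.2 and 30.9 across nPD-L1 replicates 1, 2 and 3, with overlapping groups (log2 fold change -0.76, SE 0.34, limma adjusted p = 0.338). It was not higher in the libraries that should carry the construct, so the groups are given below as libraries labelled nPD-L1 or vector. The labelled cell type was not borne out by its markers. ALB, APOA1, APOB, TTR and TF, 5 of the 8 hepatocyte and hepatoma markers, were under 5 scaled reads in every library. SERPINA1 ranged from 7.91 to 41.4, FGB from 962 to 1540.5, and AFP had no row under that name. Among other cell types, the 4 leukocyte markers with a row summed to 5.2 to 18.1 with vector and 4.82 to 17.6 with nPD-L1 (PTPRC at most 2.52), and the 2 endothelial markers with a row to 1.13 to 6.06 and 0.84 to 4.05. The 3 fibroblast markers with a row summed to 162 to 245 and to 582 to 648, with DCN at most 5.04, and COL1A1 carried the difference (49.9 to 82.8 against 445 to 487). The part of these markers in the results below was not tested.

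Vector replicate 2 stood apart by gene length. Relative to the mean of the 6 libraries, its median log2 deviation was 0.26 over genes under 2000 bases and -0.24 over genes of 10000 bases or more. In the same classes, nPD-L1 replicate 3 ran the other way, from -0.11 to 0.13, and vector replicate 3 from -0.061 to 0.069. Leaving out vector replicate 2 therefore does not remove the differences by length between the other libraries. The 43 genes were long, with a median of 8727 bases against 4654 over all genes tested, and their median deviation in that library was -0.34. It held the lowest of the 6 values for 33 of the 43. Log2 fold changes without vector replicate 2 are therefore given as well, beside the result or together after the last of the enzymes. The recovered depth was 17427519 to 22253295 reads on genes per library.

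**Figure D1:**
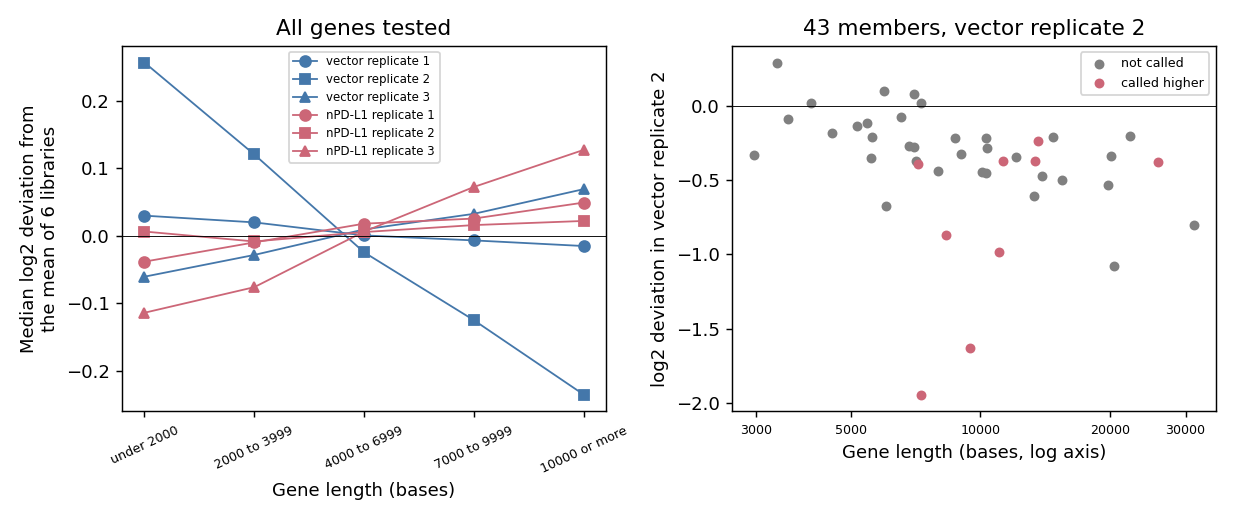
Left, median log2 deviation of each library from the mean of the 6 libraries (y axis) over the genes tested in 5 classes of gene length in bases (x axis). Blue stands for vector, red for nPD-L1, and the marker shape for the replicate. Right, the same deviation in vector replicate 2 for each of the 43 genes against gene length on a log axis, with the 9 called genes in red. Vector replicate 2 runs from 0.26 in the shortest class to -0.24 in the longest.

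Of the 43 genes, 9 were higher in the libraries labelled nPD-L1 and 0 were lower at a limma adjusted p under 0.05. Over all genes tested, 4.04% were called higher and 0.922% lower, 4.96% in either direction. Since the list was chosen with earlier results known, these shares stand beside the count as a description. At an unadjusted p under 0.05, 14 were higher and 1 lower (9.53% and 4.71% of all genes tested). The called genes were KDM6B, KDM7A, JMJD1C, SETD1B, KDM3A, KDM5B, DOT1L, KDM6A and KDM2B, so that 7 were demethylases or related JmjC proteins (7 of 21) and 2 were methyltransferases (2 of 22). KDM6B, KDM7A and JMJD1C passed a 2-fold change, as did 2.03% of all genes in the higher direction. In 15 of the 43, all libraries labelled nPD-L1 lay above all vector libraries, and in 1, SUV39H1, below (12% and 8.54% of all genes tested). The median log2 fold change was 0.18 over the 43, with 34 positive, and -0.019 over all genes tested, with 46.7% positive. Without vector replicate 2 the median over the 43 was 0.074, and the same 9 genes were called. Over all genes tested, the median was then -0.014, with 793 called higher. With the trend on gene length removed from each library, the median over the 43 was 0.079, and 6 were called (KDM5B, KDM2B and DOT1L were not). That setting put the median of all genes tested at -0.066, with 574 called higher. Among all genes of 7000 bases or longer, 4.84% were called higher.

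**Figure D2:**
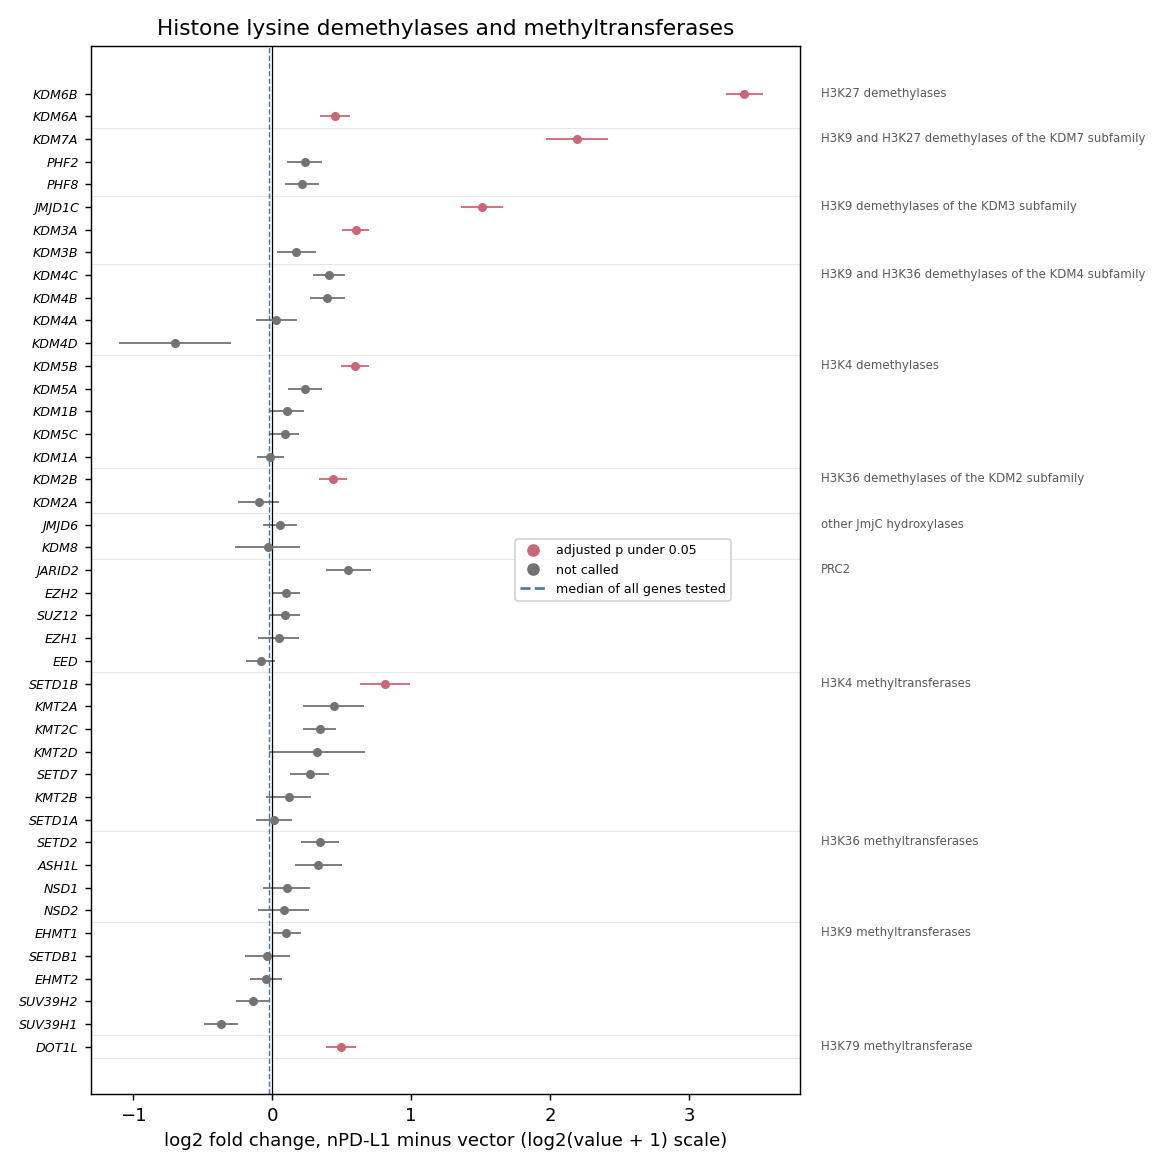
Log2 fold change (libraries labelled nPD-L1 minus vector, x axis, on the log2(value + 1) scale) with its standard error for each of the 43 genes, ordered by role. Red points passed an adjusted p under 0.05, grey points did not, and the dashed line is the median of all genes tested, -0.019. KDM6B, KDM7A and JMJD1C lie beyond 1, and every red point lies to the right of 0.

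The H3K27 demethylases KDM6A (UTX) and KDM6B (JMJD3) remove the mark that PRC2 places, and both were higher. KDM6B had 221, 192 and 277 scaled reads in vector replicates 1, 2 and 3, against 2387, 2381 and 2456 in nPD-L1 replicates 1, 2 and 3. The groups lay far apart, and the libraries labelled nPD-L1 differed little among themselves. Its log2 fold change was 3.40 (SE 0.14, limma adjusted p = 2.34e-07), a 10.5-fold difference and the largest among the 43. KDM6A, the X-linked member of the pair, had 800.4, 699 and 858 scaled reads with vector against 1064, 1031 and 1125 with nPD-L1. The groups did not overlap, but the step was small (log2 fold change 0.45, SE 0.11, limma adjusted p = 0.0407), and it was 0.37 without vector replicate 2. Per kilobase of gene length, KDM6A stood at 110.1 ± 11.3 scaled reads with vector (SD, n = 3), above KDM6B at 31.7 ± 5.99. With nPD-L1 the order was the other way, KDM6B at 332 ± 5.76 and KDM6A at 150.3 ± 6.69. The log2 difference KDM6B minus KDM6A was -1.85, -1.86 and -1.63 with vector against 1.16, 1.21 and 1.13 with nPD-L1, a shift of 2.94 (two-sided exact permutation p = 0.1, the smallest that 3 against 3 libraries allow). Such differences were computed for the 8 called genes with a paralog, and this pair entered from both sides. The exact permutation p was at that minimum for all but KDM3A (p = 0.3), with Benjamini-Hochberg adjusted values of 0.114 and 0.3. Since these genes were compared because they had been called, the differences are given below as descriptions.

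KDM6B lies on chr17:7839904-7854796, plus strand, and KDM6A on chrX:44873177-45112602, plus strand (GRCh38). Their promoters, and that of KDM7A, are printed because KDM6B and KDM7A showed the largest changes and KDM6A is the closest paralog of KDM6B. Each line holds 250 bases before and 50 after a RefSeq start (GRCh38.p14), 5′ to 3′ on the gene's strand, and capitals mark matches on either strand to TGANTCA (AP-1), CAGAC (SMAD), CACGTG (E-box) or GGGCGG (GC box). RefSeq gives KDM6B an upstream start (chr17:7833967-7834266) and one beside the gene start of the deposited table (chr17:7839667-7839966). The KDM6A window is chrX:44872938-44873237, and the KDM7A window is chr7:140176934-140177233 on the minus strand.
KDM6B, upstream start: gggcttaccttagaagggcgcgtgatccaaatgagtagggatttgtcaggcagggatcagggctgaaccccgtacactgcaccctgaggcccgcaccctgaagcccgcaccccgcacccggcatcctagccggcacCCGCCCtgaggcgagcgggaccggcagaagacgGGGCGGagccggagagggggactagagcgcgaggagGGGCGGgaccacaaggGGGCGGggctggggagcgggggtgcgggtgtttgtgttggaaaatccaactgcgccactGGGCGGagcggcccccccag
KDM6B, downstream start: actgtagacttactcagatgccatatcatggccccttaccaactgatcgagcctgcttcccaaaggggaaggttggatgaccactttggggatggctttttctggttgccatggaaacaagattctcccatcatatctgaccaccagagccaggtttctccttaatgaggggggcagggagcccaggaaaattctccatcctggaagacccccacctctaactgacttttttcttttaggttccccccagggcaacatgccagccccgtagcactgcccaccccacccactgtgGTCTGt
KDM6A: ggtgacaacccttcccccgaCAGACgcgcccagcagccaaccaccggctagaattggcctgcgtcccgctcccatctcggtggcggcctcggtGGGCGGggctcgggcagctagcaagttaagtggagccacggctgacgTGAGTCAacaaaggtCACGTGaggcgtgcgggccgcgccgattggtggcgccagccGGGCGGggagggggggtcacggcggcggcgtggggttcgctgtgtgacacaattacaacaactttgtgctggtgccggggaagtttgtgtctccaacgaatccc
KDM7A: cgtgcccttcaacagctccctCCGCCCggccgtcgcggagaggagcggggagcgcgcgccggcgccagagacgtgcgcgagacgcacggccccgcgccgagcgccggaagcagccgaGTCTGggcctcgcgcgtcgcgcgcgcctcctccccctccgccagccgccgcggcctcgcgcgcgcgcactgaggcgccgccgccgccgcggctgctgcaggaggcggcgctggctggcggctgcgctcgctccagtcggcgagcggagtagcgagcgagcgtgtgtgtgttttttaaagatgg

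The upstream KDM6B window held 5 GC boxes and none of the other 3 motifs, whereas the downstream one held 1 SMAD match alone, with a GC content of 53% against 69.3%. KDM6A held 1 match each to AP-1, SMAD and E-box and 2 GC boxes, and KDM7A held 1 SMAD match and 1 GC box in a window of 77% GC. RefSeq promoters were matched for 40 of the 43 genes (not DOT1L, JMJD6 or SETD1B), 58 windows in all, with a median GC content of 67.3% against 58.7% over all 35116 windows. Among the 14 windows of the 7 matched called genes, GGGCGG was present in 11, CAGAC in 9, TGANTCA in 2 and CACGTG in 2. Among all 58 windows of the matched genes, called or not, the numbers were 44, 32, 3 and 9. Windows of the same gene can overlap, as those of KDM3A do. Over all 35116 windows the shares were 45%, 45.3%, 7.71% and 7.26%. These are matches of letters and carry no evidence of binding.

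KDM7A, PHF2 and PHF8 form the KDM7 subfamily, in which a PHD finger that reads methylated H3K4 sits beside the JmjC domain. KDM7A (chr7:140084746-140177035, minus strand), which acts on H3K9 and H3K27, had 132, 84.7 and 165 scaled reads with vector against 579, 494 and 632 with nPD-L1. All libraries labelled nPD-L1 were well above all vector libraries, and vector replicate 2 was the lowest. The log2 fold change was 2.19 (SE 0.22, limma adjusted p = 0.000169) and 1.93 without that library. PHF2, an H3K9 demethylase, had 608, 477 and 613 with vector against 675, 646 and 666 with nPD-L1 (log2 fold change 0.24, limma adjusted p = 0.456). PHF8, which acts on H3K9 and H4K20, had 709.6, 567 and 713 with vector against 833, 715 and 756 with nPD-L1 (log2 fold change 0.22, limma adjusted p = 0.505). In both, the groups stood narrowly apart and the test did not pass. KDM7A minus the mean of PHF2 and PHF8 moved by 1.97 on the log2 scale. Per kilobase KDM7A was the lowest of the 3 in either group, 13.5 ± 4.29 scaled reads with vector against 60.2 ± 7.4 with nPD-L1, beside 102 ± 13.9 and 119 ± 2.61 for PHF2.

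In the KDM3 subfamily of H3K9 demethylases, 2 of 3 members were higher. JMJD1C (chr10:63167221-63521850, minus strand), a JmjC protein whose demethylase activity has been debated, had 967, 845 and 1189.9 scaled reads with vector against 2865, 2376 and 3302 with nPD-L1. The lowest library labelled nPD-L1 was well above the highest vector library. Its log2 fold change was 1.51 (SE 0.15, limma adjusted p = 0.000152), a 2.85-fold difference. KDM3A (chr2:86440647-86492716, plus strand), which removes H3K9 mono- and dimethylation and is known as a hypoxia-responsive gene, had 935, 916 and 1044 with vector against 1390.0, 1493 and 1504 with nPD-L1. Its groups were tight and apart (log2 fold change 0.60, SE 0.10, limma adjusted p = 0.00482). KDM3B, the third H3K9 enzyme of the subfamily, had 1816, 1250.2 and 1783 with vector against 1859, 1679 and 1870.5 with nPD-L1. Those groups overlapped, with vector replicate 2 alone low (log2 fold change 0.18, limma adjusted p = 0.652). JMJD1C moved apart from the mean of KDM3A and KDM3B by 1.12, while KDM3A moved by -0.24 against KDM3B and JMJD1C. Per kilobase, JMJD1C stood at 90.4 ± 15.8 with vector, below KDM3B at 203 ± 39.9, and at 257 ± 41.9 with nPD-L1, where KDM3B stood at 226 ± 13.5 and the SDs overlapped. JMJD1C shares 488 bases with REEP3 on the opposite strand, and no source used here states that counting used strand, so reads there cannot be told apart. REEP3 itself averaged 1312 scaled reads with vector against 1413 with nPD-L1.

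**Figure D3:**
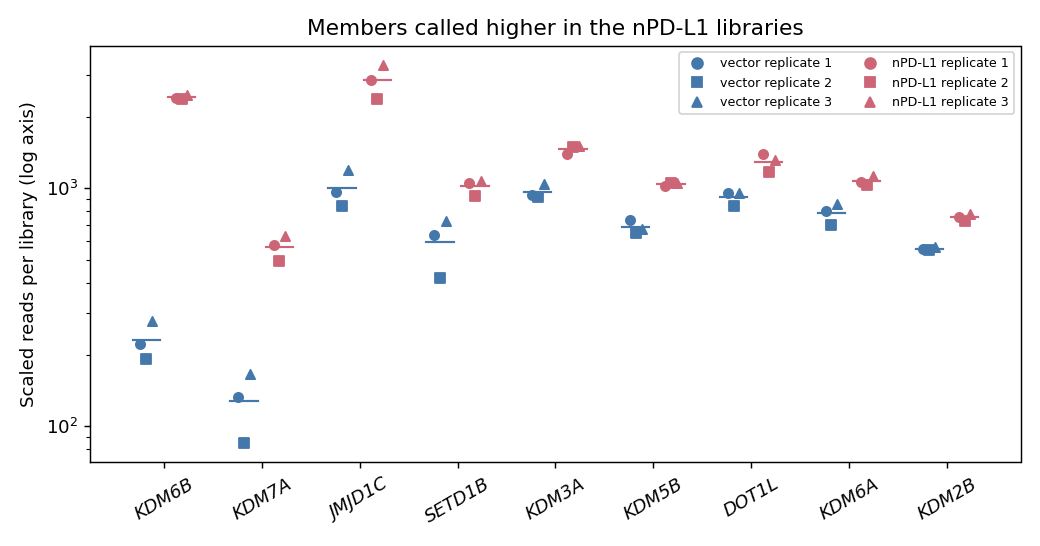
Scaled reads per library (log y axis) for the 9 called genes, in order of log2 fold change (x axis). Blue is vector, red is nPD-L1, the marker shape gives the replicate, and each short line is the mean of 3 libraries. In each gene every red point lies above every blue point, by the widest margin in KDM6B.

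None of the 4 KDM4 enzymes, which act on H3K9 trimethylation and, except for KDM4D, on H3K36 trimethylation, passed the limma test. KDM4C had 447, 464 and 496 scaled reads with vector against 593, 596 and 682 with nPD-L1 (log2 fold change 0.41, SE 0.11, limma adjusted p = 0.0782). KDM4B had 428, 384 and 352 with vector against 543, 532 and 460.1 with nPD-L1 (log2 fold change 0.40, SE 0.13, limma adjusted p = 0.136). The groups of both stood apart, and both were among the genes with an unadjusted p under 0.05. DESeq2 on the recovered reads called KDM4C (adjusted p = 0.0432) and edgeR did not (adjusted p = 0.0731), and neither called KDM4B. KDM4D had the largest difference of the 4 in size but was also the scarcest of the 43, at 26.2, 14.7 and 36.4 with vector against 13.4, 18.2 and 12.5 with nPD-L1, and its groups overlapped (log2 fold change -0.70, SE 0.40, limma adjusted p = 0.509). KDM4A was at a log2 fold change of 0.03.

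The H3K4 demethylases comprise the flavin enzymes KDM1A (LSD1) and KDM1B and the JmjC enzymes of the KDM5 subfamily, and 1 of the 5 was higher. KDM5B (chr1:202724495-202809470, minus strand) had 738, 648 and 677 scaled reads with vector against 1024, 1051 and 1048 with nPD-L1. The libraries labelled nPD-L1 were closely grouped above all vector libraries (log2 fold change 0.60, SE 0.10, limma adjusted p = 0.00497). The call was lost with the length trend removed (0.44, limma adjusted p = 0.0726). KDM5A had 1087, 882 and 1153 with vector against 1190.0, 1149 and 1331 with nPD-L1 (log2 fold change 0.24, limma adjusted p = 0.436), and KDM5C had 3132, 2513 and 2903 with vector against 3077, 3023 and 2965 with nPD-L1 (0.09, limma adjusted p = 0.752). Their groups overlapped. KDM5B minus the mean of KDM5A and KDM5C moved by 0.43. KDM5B stayed the lowest of the 3 per kilobase, at 26.6 ± 1.77 with vector and 40.2 ± 0.558 with nPD-L1, beside 326 ± 35.9 and 346 ± 6.42 for KDM5C. This order rests on the deposited gene lengths, 25882 bases for KDM5B, 12091 for KDM5A and 8727 for KDM5C. Whether those lengths match the transcripts present was not tested. KDM1A, abundant at 2407 to 2752 scaled reads over the 6 libraries, had a log2 fold change of -0.01 (SE 0.10), and KDM1B one of 0.10 (SE 0.12).

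KDM2A and KDM2B remove H3K36 methylation and bind unmethylated CpG islands, and KDM2B also recruits a Polycomb repressive complex 1. KDM2B (chr12:121429097-121581015, minus strand) had 557, 549 and 566 scaled reads with vector against 759.7, 728 and 779 with nPD-L1. The difference was small beside a smaller spread (log2 fold change 0.44, SE 0.10, limma adjusted p = 0.0313). The call was lost with the length trend removed (0.29, limma adjusted p = 0.205), with a GC trend removed (0.35, limma adjusted p = 0.0842) and without any 1 of vector replicates 1 or 3 or nPD-L1 replicates 1, 2 or 3. KDM2B shares 1527 bases with RNF34 on the opposite strand, which averaged 922 scaled reads with vector against 760.4 with nPD-L1. KDM2A had 2204, 1685 and 2584 with vector against 2149, 1941 and 1885 with nPD-L1, overlapping throughout (log2 fold change -0.10, limma adjusted p = 0.818). KDM2B moved against KDM2A by 0.53. The remaining JmjC proteins, JMJD6 and KDM8, whose hydroxylase roles extend beyond histones, had log2 fold changes of 0.06 and -0.03 and overlapping groups.

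**Figure D4:**
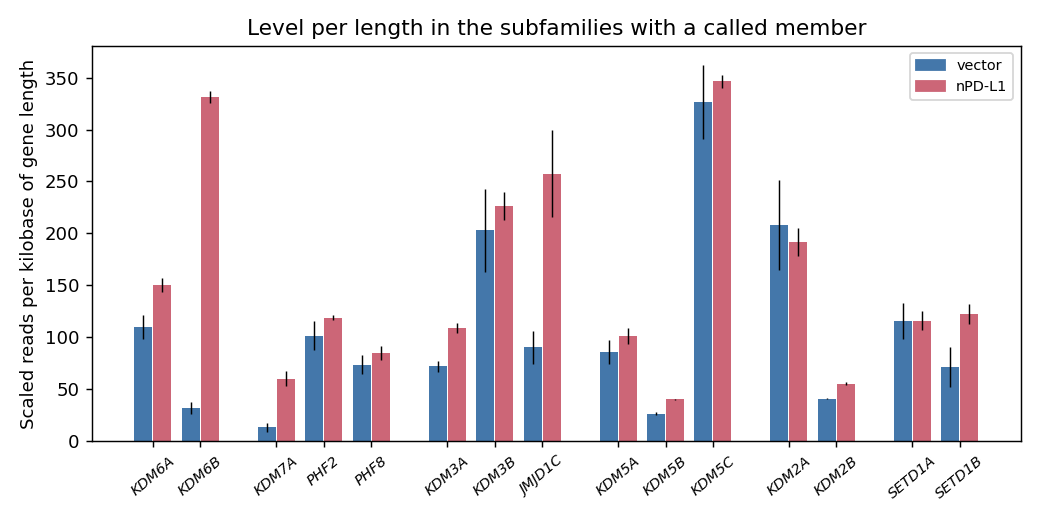
Scaled reads per kilobase of gene length (y axis, from 0; bars are means and lines SDs of 3 libraries) for the subfamilies that hold a called gene, in vector (blue) and nPD-L1 (red) libraries. KDM6B rises from 31.7 to 332 and passes KDM6A, whereas KDM7A and KDM5B stay the lowest of their subfamilies. The order within a subfamily rests on the deposited gene lengths.

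None of the 5 PRC2 genes was called by limma. EZH2, the main catalytic subunit that trimethylates H3K27, had 1266, 1129 and 1329 scaled reads with vector against 1318, 1326 and 1346 with nPD-L1, with overlapping groups (log2 fold change 0.10, SE 0.10, limma adjusted p = 0.713). EZH1, EED and SUZ12, the second catalytic and the 2 core scaffold subunits, had log2 fold changes of 0.05, -0.08 and 0.09. JARID2, an accessory subunit that helps to target the complex, was the PRC2 gene with the largest difference, at 491, 326 and 501 with vector against 661, 616 and 617 with nPD-L1. Its groups stood apart, the test did not pass (log2 fold change 0.55, SE 0.16, limma adjusted p = 0.103), and without vector replicate 2 the value was 0.35. JARID2 was called by DESeq2 (adjusted p = 0.0474) but not by edgeR (adjusted p = 0.107), and limma called it without vector replicate 3 (adjusted p = 0.0407) and with no filter on low values (adjusted p = 0.0334).

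Of the 7 H3K4 methyltransferases, SETD1B was higher and 6 were not called. SETD1B (chr12:121804180-121832584, plus strand), a catalytic subunit of a COMPASS complex, had 635, 419 and 729.5 scaled reads with vector against 1049, 929 and 1077 with nPD-L1. The groups did not overlap, and vector replicate 2 was far below the other two (log2 fold change 0.81, SE 0.18, limma adjusted p = 0.0268). Without that library the value was 0.58 (limma adjusted p = 0.00234), and with a GC trend removed it was 0.71 and not called (limma adjusted p = 0.0740). SETD1A, its paralog, had 864, 653 and 852 with vector against 839, 724 and 815 with nPD-L1 (log2 fold change 0.01, limma adjusted p = 0.974). SETD1B moved against SETD1A by 0.80, and per kilobase it stood at 71.5 ± 19.1 with vector and 122 ± 9.4 with nPD-L1, beside 116 ± 17.4 and 116 ± 8.85. KMT2C, an enhancer H3K4 monomethyltransferase, had 602, 534 and 670.3 with vector against 717, 740.4 and 828 with nPD-L1, apart but not called (log2 fold change 0.34, SE 0.12, limma adjusted p = 0.188). Its paralog KMT2D had 1752, 749.9 and 2166 with vector against 1843, 1743 and 1747 with nPD-L1. Vector replicate 2 alone was low there, and the log2 fold change was 0.33 with it and -0.13 without it. KMT2A, KMT2B and SETD7 had log2 fold changes of 0.44, 0.12 and 0.27 with overlapping groups.

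DOT1L (chr19:2164149-2232578, plus strand), the H3K79 methyltransferase, which has no SET domain, had 951, 839 and 958 scaled reads with vector against 1389, 1175 and 1319.7 with nPD-L1. All libraries labelled nPD-L1 lay above all vector libraries (log2 fold change 0.50, SE 0.11, limma adjusted p = 0.0231). The call was lost with the length trend removed (0.36, limma adjusted p = 0.0578) or a GC trend removed (0.39, limma adjusted p = 0.0951). DOT1L shares 2495 bases with PLEKHJ1 on the opposite strand, which averaged 809 scaled reads with vector against 677 with nPD-L1, and 320 bases with AP3D1.

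No H3K36 or H3K9 methyltransferase was called by limma. Among the 4 for H3K36, SETD2, which trimethylates H3K36 along transcribed genes, had the largest difference, at 877, 701 and 997 with vector against 1145, 974 and 1131 with nPD-L1. Those groups overlapped (log2 fold change 0.35, SE 0.14, limma adjusted p = 0.266). NSD1, NSD2 and ASH1L, which place mainly H3K36 dimethylation, had log2 fold changes of 0.11, 0.08 and 0.33. Among the 5 for H3K9, SUV39H1, which trimethylates H3K9 in heterochromatin, was the only one of the 43 with all libraries labelled nPD-L1 below all vector libraries, at 824, 888 and 770.1 with vector against 688, 552 and 687 with nPD-L1 (log2 fold change -0.37, SE 0.12, limma adjusted p = 0.154). SUV39H2, SETDB1, EHMT1 and EHMT2 had log2 fold changes of -0.14, -0.03, 0.10 and -0.04 with overlapping groups.

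Without vector replicate 2, the log2 fold changes of most uncalled genes were lower than with it. Among the demethylases and related JmjC proteins, the log2 fold changes were then 0.12 for PHF2, 0.11 for PHF8, 0.00087 for KDM3B, 0.13 for KDM5A, 0.0031 for KDM5C, -0.073 for KDM1A, 0.026 for KDM1B, -0.26 for KDM2A, 0.12 for JMJD6, -0.032 for KDM8, -0.030 for KDM4A, 0.39 for KDM4B, 0.40 for KDM4C and -1.04 for KDM4D. Among the PRC2 genes and H3K4 methyltransferases they were 0.036 for EZH2, -0.080 for EZH1, -0.063 for EED, 0.074 for SUZ12, 0.15 for KMT2A, -0.079 for KMT2B, 0.26 for KMT2C, 0.10 for SETD7 and -0.12 for SETD1A. Among the H3K36 and H3K9 methyltransferases they were 0.21 for SETD2, 0.11 for ASH1L, -0.12 for NSD1, -0.16 for NSD2, -0.32 for SUV39H1, -0.22 for SUV39H2, -0.23 for SETDB1, 0.028 for EHMT1 and -0.043 for EHMT2. KMT2A, SETD7, ASH1L, KDM3B and KDM5C thus lost most of their difference, whereas KDM4B and KDM4C kept theirs.

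Partners of these enzymes were read from a second list of 71 genes, of which 70 had a row and 69 passed the filter. It held the COMPASS core and partners, further PRC2 core and accessory genes, PRC1, the KDM1A complex and heterochromatin readers. Other lysine methyltransferases, other JmjC proteins and DOT1L partners made up the rest. Of the 69, 2 were higher and 1 was lower at a limma adjusted p under 0.05, beside 4.04% and 0.922% of all genes tested, and the median log2 fold change was 0.016. These shares are near those of all genes, so the 3 genes are given for their own values and not as a result about the list. CBX8, the PRC1 subunit that reads H3K27 trimethylation, had 414, 507 and 357 scaled reads with vector against 209, 229 and 177 with nPD-L1. It was lower in every library labelled nPD-L1 (log2 fold change -1.04, SE 0.16, limma adjusted p = 0.00337), the only called fall among both lists. KMT5C, which trimethylates H4K20, had 157, 147 and 151 with vector against 276, 229 and 248 with nPD-L1 (log2 fold change 0.72, SE 0.14, limma adjusted p = 0.0146). HR, a JmjC protein known for its role in hair growth, had 388, 271 and 327 with vector against 600.0, 563 and 532 with nPD-L1 (log2 fold change 0.79, SE 0.15, limma adjusted p = 0.00862). The groups of all 3 stood apart. The HR call was lost without nPD-L1 replicate 1 (0.75), and the KMT5C call without vector replicate 1 (0.75), nPD-L1 replicate 1 (0.65) or nPD-L1 replicate 3 (0.73). None of the 11 COMPASS, 7 further PRC2 core or accessory, 4 KDM1A complex, 3 heterochromatin reader or 4 DOT1L partner genes was called.

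KDM6B, KDM7A, JMJD1C and KDM3A were called in all 19 alternative settings, and KDM5B in 18. KDM6A, SETD1B and DOT1L were called in 14, and KDM2B in 11. Without vector replicate 1, nPD-L1 replicate 1 or nPD-L1 replicate 3, 5 of the 9 calls were kept in each case, and those lost were KDM6A, KDM2B, SETD1B and DOT1L. Without nPD-L1 replicate 2, KDM6A, KDM2B and SETD1B were lost. Without vector replicate 2 the 9 calls remained, with log2 fold changes of 3.28 for KDM6B, 1.39 for JMJD1C, 0.56 for KDM3A, 0.56 for KDM5B, 0.44 for DOT1L and 0.43 for KDM2B beside those given above for KDM7A, SETD1B and KDM6A. The partner genes stood at -0.91 for CBX8, 0.70 for KMT5C and 0.66 for HR in that setting, all called by limma.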

How the data were processed

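Total RNA of 6 libraries was prepared with the NEBNext Ultra RNA kit and sequenced by a company (Novogene). The submitters' processing notes name CASAVA, HISAT2 (2.0.5) and hg38, and the counter and annotation are not given in the sources used here. The authors deposited a signal, the read count of a gene over the size factor of its library. The deposited table also holds the authors' group means, log2 fold changes, p-values and adjusted p-values, which were not used. Libraries were grouped by their titles.

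The values were tested with limma (3.58.1, R 4.3.3) on log2(value + 1), eBayes with trend and robust moderation, over the 15076 genes that reached 10 in 3 or more libraries, with Benjamini-Hochberg adjustment over all of them. Fold changes on this scale are somewhat understated for scarce genes. All values (100%, tolerance 0.001) were whole multiples of 1 read, and on the recovered reads edgeR (4.0.16) called 620 genes higher and 138 lower and DESeq2 (1.42.0) 758 and 202, against 609 and 139 with limma. The scripts were tested on simulated data. The recovered depth was 17427519 to 22253295 reads, and the scarcest genes carry the most counting error.

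Differences within a subfamily were tested by the exact permutation test over the 6 libraries. Named with values were called genes, their subfamily members, genes with an unadjusted p under 0.05, the largest difference in each role group, and called partner genes. The members and lists were chosen with earlier results of these data known. Gene lengths are those of the deposited table. Alternatives covered pseudocounts, filters, scaling, moderation, protein-coding genes only, gene length, GC content (added after seeing the data), the replicate block, other tests, thresholds and leaving out each library. Protein sequences were not used here. A result for 1 gene is not reported here.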

Additional observations from a re-analysis of the deposited data

How the results depend on the processing

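The count of the 43 genes called higher was 9. Leaving out 1 library gave 5 to 9, a 2-fold threshold gave 3, and an unadjusted p under 0.05 gave 14. It was 9 with edgeR, 11 with DESeq2, and 6 with a length or a GC trend removed. Over all genes tested, 609 were called higher, 350 to 793 without 1 library, 574 with a length trend removed and 570 with a GC trend removed. The count of the 43 called lower was 0, and 1 at an unadjusted p. Among the partner genes, 2 were called higher, 0 to 3 without 1 library, 0 at 2-fold and 10 at an unadjusted p, and 1 was called lower, 3 at an unadjusted p. limma on the libraries with recovered reads equals the fit described, since all 6 were recovered.

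The labels say nothing of pairing, so whether the replicate numbers pair the libraries is not known. Same-numbered libraries deviated from their group means with correlations across genes of -0.013, 0.23 and 0.13 for replicates 1, 2 and 3. Replicates 2 and 3 correlated best with their own number, and replicate 1 did not. The main fit did not pair the libraries. With the replicate number as a block, 12 of the 43 were called higher (KDM4B, KDM4C and JARID2 joined the 9), 0 lower, and 4 partner genes higher. Calls rose over all 15076 genes tested too, to 927 higher and 258 lower, against 609 and 139 in the main fit.

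The GC trend was chosen after seeing the data. Small log2 fold changes, none called, changed sign with the length trend removed: KDM4A (-0.031), KDM5C (-0.019), JMJD6 (-0.018), EZH1 (-0.036), KMT2B (-0.010), SETD1A (-0.068), NSD1 (-0.046), NSD2 (-0.077) and EHMT1 (-0.059). SETD1A was also at -0.012 with upper-quartile factors and at -0.089 with the GC trend removed. These signs are relative to 0, and the median over all genes tested moved as well. It was -0.066 with the length trend removed, -0.044 with upper-quartile factors and -0.051 with the GC trend removed, against -0.019 in the main fit. Leaving out 1 library turned the sign in 13 uncalled genes, whose log2 fold changes ranged from -0.030 to 0.14 (KDM4A), -0.073 to 0.024 (KDM1A), -0.26 to 0.045 (KDM2A), -0.17 to 0.11 (KDM8), -0.025 to 0.16 (JMJD6), -0.080 to 0.14 (EZH1), -0.079 to 0.23 (KMT2B), -0.13 to 0.63 (KMT2D), -0.12 to 0.085 (SETD1A), -0.12 to 0.27 (NSD1), -0.16 to 0.26 (NSD2), -0.23 to 0.070 (SETDB1) and -0.14 to 0.018 (EHMT2). The within-subfamily differences kept their sign in every setting tried. The cause of these changes was not tested.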
